A study of Mus musculus with 45 samples.

Results

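The 10 genes described here encode the spindle assembly checkpoint and the machinery that releases sister chromatids: Bub1, Bub1b, Bub3, Mad2l1, Ttk, Sgo2a, Espl1, Pttg1, Aurkc and Incenp. They were chosen by symbol, with earlier results of these data known. All 10 were found among the 26214 genes of an RNA-seq table of mouse oocytes and embryos. Levels are given in TPM, a unit of length-corrected transcript shares that scales each library to the same total, so that levels can be compared between genes. A TPM is a share of the RNA of its library, so fewer transcripts of a gene and more RNA of other genes cannot be told apart.

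The study expressed a histone H3.3 in which lysine 36 was replaced by methionine (K36M) in growing oocytes. Control females carried the H3f3b K36M-flox allele without Cre, and K36M females carried the same allele together with Gdf9-Cre, whose promoter is active in oocytes, so both genotypes share the flox allele. Fully grown oocytes (FGOs), arrested in meiotic prophase, came from females aged 3 to 4 weeks on a hybrid C57BL/6 and 129 background, and each of the 3 control and 3 K36M libraries held 5 FGOs. Late two-cell embryos, taken 31 to 32 h after in vitro fertilization with JF-1 sperm, were sequenced 1 per library, with 7 control embryos and 8 embryos derived from K36M oocytes. Control and K36M name the genotype of the mother here, since an embryo may or may not have inherited the mother's altered H3f3b allele, and its own genotype is not given by the labels. An eighth control embryo, replicate 4, was left out by the study for a technical problem and enters no comparison here. The labels do not say which libraries came from the same female, so the p-values measure the spread between these libraries.

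Oocyte and zygotic markers followed the labelled stages. All 8 oocyte markers (Zp1, Zp2, Zp3, Gdf9, Bmp15, Mos, Oosp1 and Btg4) averaged 1 TPM or more in each group, with summed levels of 17650 to 17982 TPM in control FGOs, 15447 to 16979 TPM in K36M FGOs and 1093 to 4451 TPM in embryos. The 8 markers of zygotic transcription, such as Zscan4d and Zfp352, summed to 34.5 to 73.9 TPM in FGOs and 270.4 to 2440 TPM in embryos, and Zscan4f was at 0 in all 6 FGO libraries. Markers of granulosa and cumulus cells, which surround the oocyte, summed to 41.5 to 55.3 TPM in FGOs and 17.9 to 147.1 TPM in embryos. Of these 10 genes, 9, 7, 7 and 8 averaged 1 TPM or more in control FGOs, K36M FGOs, control embryos and K36M embryos. In FGOs the highest was Cyp19a1, with means of 25.1 TPM in controls and 24.9 TPM in K36M, while Tnfaip6 was at 0 in the 3 K36M FGO libraries. Blood markers reached at most 59.5 TPM in sum, and stromal markers at most 34.2 TPM. Among the blood markers Hbb-bt was at 0 in every library compared, while Alas2 had group means of 1.76 to 4.74 TPM. The part of these cells in the members' values was not tested. TPM keeps no sequencing depth. The study lists more reads for each FGO library than for any embryo library, and FGO libraries listed 16707 to 18559 genes above 0, against 12115 to 17329 in control embryos and 10894 to 14879 in K36M embryos. H3f3b, which carries the mutated allele, was at 306.7, 264.7 and 308.0 TPM in control FGOs and at 399.2, 418.3 and 376.8 TPM in K36M FGOs, which differed on the log2 scale by 0.44 ± 0.09 (SE; limma, adjusted p = 0.281), but the table does not separate the mutated from the normal transcript.

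As background, an FGO makes little new RNA and carries stored messages through both meiotic divisions, fertilization and the first cleavage, while many of those messages are degraded before the embryo's own genome becomes active at the two-cell stage. The spindle assembly checkpoint delays anaphase until every kinetochore is attached: Ttk and Bub1 are its kinases, Bub3 docks Bub1 and BubR1 (the product of Bub1b) on the kinetochore, and BubR1 and Mad2 (from Mad2l1) hold Cdc20 away from the anaphase-promoting complex. When the checkpoint is satisfied, securin (Pttg1) is destroyed and separase (Espl1) cleaves cohesin, except where shugoshin 2 (Sgo2a) protects it. Incenp is the scaffold of the chromosomal passenger complex, and Aurkc is an Aurora kinase of germ cells that acts in that complex.

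The genes lie on 8 chromosomes of GRCm38.p6 in the RefSeq annotation. Bub1 spans 127800197 to 127831859 on the minus strand of chromosome 2, and Bub1b spans 118598202 to 118641592 on the plus strand of the same chromosome. Chromosome 7 holds Bub3 (131560367 to 131571895, plus strand) and Aurkc (6995347 to 7003091, plus strand). Mad2l1 lies on chromosome 6 (66535221 to 66541107, plus), Ttk on chromosome 9 (83834651 to 83872390, plus), Sgo2a on chromosome 1 (57985340 to 58026277, plus), Espl1 on chromosome 15 (102296254 to 102324357, plus), Pttg1 on chromosome 11 (43420244 to 43427463, minus) and Incenp on chromosome 19 (9872295 to 9899489, minus). Aurkc is the least certain of the 10 levels, since all 1401 bases of its longest GENCODE transcript recur at an identity of at least 95% in other annotated genes, the closest of them being Gm7789, Gm7207 and Gm6909. Of the exonic bases of Sgo2a, 35.0% overlap Kctd18 on the opposite strand, and the strand setting used to count reads is not given in the sources used here, so their reads may have been mixed. Shared stretches were short in Mad2l1 (7.62% of its transcript) and Pttg1 (4.48%), and none were found in Bub1, Bub1b, Bub3, Ttk, Espl1 and Incenp.

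Cell cycle genes commonly carry CCAAT boxes, bound by NF-Y, and TTTGAA or TTTAAA elements close to their start, so these letters were searched on both strands in the RefSeq promoters of GRCm38.p6, from 250 bases before to 50 bases after each start. Promoters were given for 9 of the 10 genes, all but Incenp, and numbered 11, since Bub3 and Sgo2a have 2 each. CCAAT was found in 9 of these 11 promoters, of 7 genes (Bub1, Bub1b, Bub3, Ttk, Sgo2a, Espl1 and Aurkc), and in 37.4% of all 32851 promoters searched. Promoters of a single chromosome, which holds none of the 10 genes, were left out of this and the following shares of all promoters. TTTGAA was found in 5 of the 11, of 4 genes (Bub1b, Bub3, Ttk and Espl1), and in 17.9% of all promoters. Each of these 5 promoters also held a CCAAT in the same 300-base window, at any distance, and 10.7% of all promoters held a CCAAT box with either of the other motifs. TTTAAA was in 0 of the 11 and in 13.2% of all promoters. Starts in the promoter table can lie inside the span of the gene, so only the bases before that span are shown, for Bub1b and Ttk, which fell from FGO to embryo in both genotypes, and Espl1, which was higher in all embryos than in any FGO library. Capitals mark the CCAAT matches, which read ATTGG where the box is on the opposite strand. The window of Pttg1, the other gene that fell in both genotypes, lies inside the span of Pttg1 and is not printed.
Bub1b, chr2:118597961-118598201 (plus strand): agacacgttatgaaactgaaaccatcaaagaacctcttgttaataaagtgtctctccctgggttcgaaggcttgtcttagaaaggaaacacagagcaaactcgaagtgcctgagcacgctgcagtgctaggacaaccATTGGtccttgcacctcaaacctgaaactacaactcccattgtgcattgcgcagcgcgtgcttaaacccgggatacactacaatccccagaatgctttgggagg
Ttk, chr9:83834439-83834650 (plus strand): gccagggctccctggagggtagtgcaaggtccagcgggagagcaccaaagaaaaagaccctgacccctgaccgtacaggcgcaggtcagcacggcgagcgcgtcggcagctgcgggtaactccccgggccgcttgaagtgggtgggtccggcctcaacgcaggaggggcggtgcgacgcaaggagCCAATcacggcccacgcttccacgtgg
Espl1, chr15:102296043-102296253 (plus strand): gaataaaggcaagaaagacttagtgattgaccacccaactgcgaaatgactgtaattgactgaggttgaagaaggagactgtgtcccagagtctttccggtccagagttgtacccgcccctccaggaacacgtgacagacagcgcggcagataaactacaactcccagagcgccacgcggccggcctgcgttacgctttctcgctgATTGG
Both kinds of promoter, of genes that fell and of the gene that was higher, held a CCAAT within the printed stretch. The start used by the promoter table lies 9, 38 and 39 bases inside the spans of Bub1b, Ttk and Espl1. Counted from it, the CCAAT of Espl1 begins at -44 and its TTTGAA at -27, the latter after the first annotated base of the gene and so outside the printed bases. Likewise not printed are the second CCAAT of Ttk, at -28, and the TTTGAA of Bub1b and Ttk, at positions 41 and 8. A match describes letters only, and none of these was measured here as a bound site.

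In control FGOs the 10 genes together took 0.323 to 0.332% of all TPM, and Bub1b alone contributed nearly as much as the other 9 genes, which summed to 1689 to 1749 TPM. Bub1b stood at 1593, 1480 and 1629 TPM in the 3 control FGO libraries, above 99.8% of all genes in its mean. Pttg1 followed at 389.3, 393.9 and 359.0 TPM, Incenp at 311.0, 334.4 and 313.3 TPM, and Ttk at 303.6, 298.4 and 289.3 TPM. These 4 genes did not overlap with each other. Mad2l1 (148.8, 173.4 and 185.7 TPM) and Bub1 (143.7, 152.6 and 144.2 TPM) came next, and their ranges overlapped although Mad2l1 was the higher in 3 of 3 libraries. Aurkc (101.3, 106.2 and 132.1 TPM) overlapped with Espl1 (107.2, 106.6 and 103.7 TPM), and Sgo2a (91.9, 88.0 and 90.5 TPM) with Bub3 (91.9, 94.97 and 77.6 TPM), the lowest of the 10. Even Bub3 was above 89.7% of all genes.

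**Figure D1:**
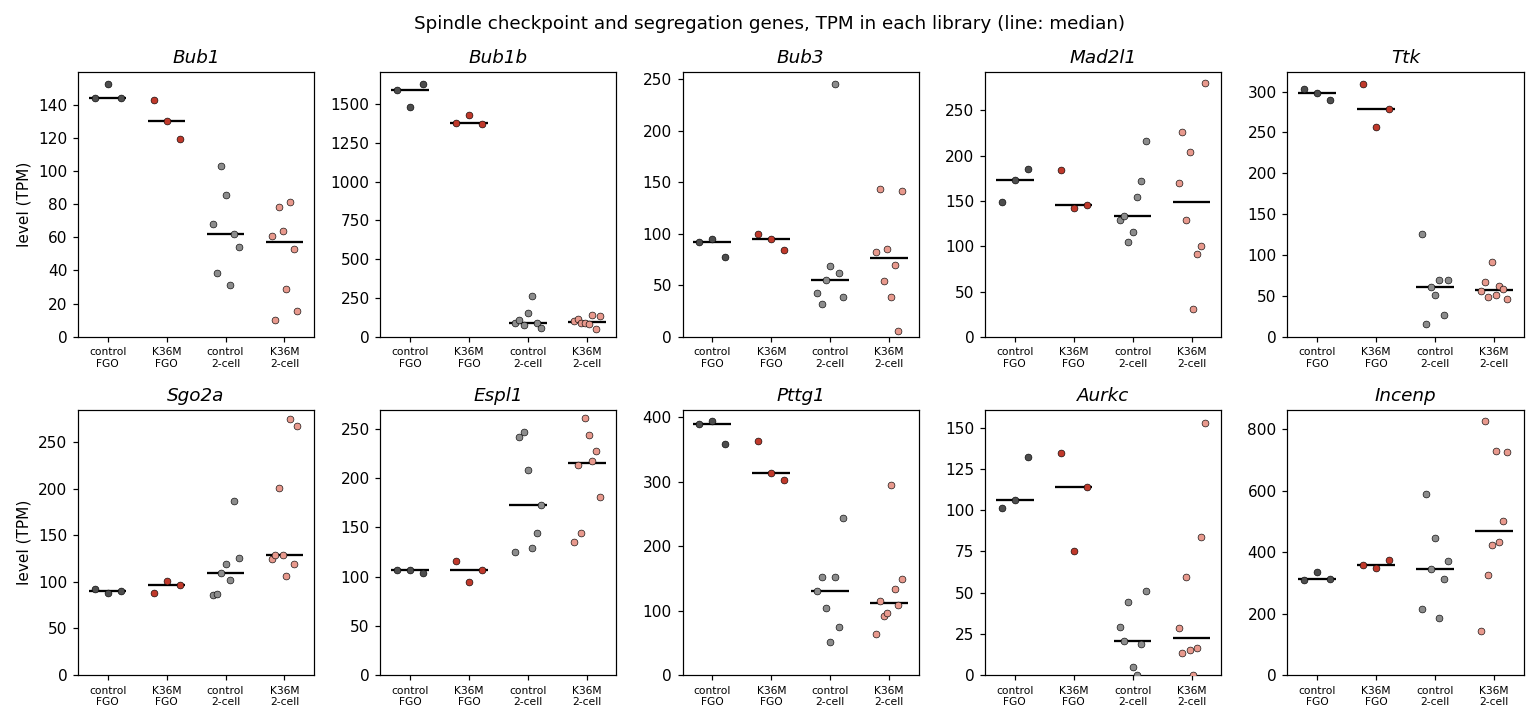
TPM of each of the 10 genes on a linear axis that starts at 0, with 1 point per library for control FGOs (3), K36M FGOs (3), control two-cell embryos (7) and K36M oocyte-derived two-cell embryos (8), and a line at each group's median. Bub1b drops from 1372 to 1629 TPM in FGOs to 48.8 to 261.8 TPM in embryos, whereas Espl1 sits at 94.3 to 115.5 TPM in FGOs and at 125.1 to 260.9 TPM in embryos.

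The order was different in embryos. In the 7 control embryos Incenp was the most abundant, with a lowest level of 186.9, a median of 344.8 and a highest of 589.7 TPM, and it exceeded Espl1, the next gene, in 7 of 7 embryos. Every pair of neighbours in the order overlapped in its range, so the order of adjacent genes below Incenp (Espl1, Mad2l1, Pttg1, Bub1b, Sgo2a, Bub3, Bub1 and Ttk) was not separated by these embryos. Genes farther apart could be, as Espl1 and Mad2l1 (at least 125.1 and 104.3 TPM) both lay above every value of Bub1 (at most 102.9 TPM). Aurkc was the lowest of the 10 in mean. The 10 genes together took 0.104 to 0.142% of TPM in control embryos and 0.0965 to 0.210% in K36M embryos. Without Bub1b, the other 9 genes summed to 952 to 1343 TPM in control and 865 to 1961 TPM in K36M embryos.

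The first comparison asked whether H3.3K36M in the oocyte changed these messages before fertilization. No member passed an adjusted p of 0.05 in limma between K36M and control FGOs, where 0.00726% of the 13775 genes tested (1 gene) did. That count rested on single libraries, since 300 of 13799 genes, but again 0 members, passed without K36M FGO replicate 1. The fitted differences of the members were small, from -0.22 (Pttg1) to 0.18 (Incenp) on the log2(TPM + 1) scale, with a median of -0.09 against 0.01 over all genes. At an unadjusted p under 0.05 stood 3 members, against 10.5% of all genes. The levels of 3 members, not the same 3, did not overlap between the genotypes, against 15.6% of all genes.

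Bub1b, whose checkpoint protein binds Cdc20, was at 1381, 1428 and 1372 TPM in the K36M FGO libraries, each below the lowest control. Its log2 fold change was -0.17 ± 0.06 (SE, n = 3 and 3; limma, adjusted p = 0.421). Bub1, its sister kinase at the kinetochore, stood at 142.9, 130.1 and 119.3 TPM in K36M FGOs, again all below the controls, with a log2 fold change of -0.17 ± 0.10 (limma, adjusted p = 0.560). The highest K36M value of Bub1 lay within 1 TPM of the lowest control value. In the same libraries the summed oocyte markers were also below every control (15447 to 16979 against 17650 to 17982 TPM), and their part in these values was not tested. Pttg1, the gene of securin, was at 363.3, 314.1 and 302.4 TPM in K36M FGOs and overlapped with the controls. Its log2 fold change was -0.22 ± 0.09 (limma, adjusted p = 0.440). Incenp, the passenger scaffold, went the other way, at 358.7, 348.4 and 375.9 TPM, above every control, with a log2 fold change of 0.18 ± 0.07 (limma, adjusted p = 0.456). None of these differences passed the test over all genes.

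The 95% intervals show how much change the FGO libraries leave room for. For Bub1b the interval ran from -0.31 to -0.03, and for Ttk from -0.28 to 0.11. Espl1 had an interval of -0.24 to 0.22, and Sgo2a one of -0.14 to 0.29. The widest was that of Aurkc, from -0.56 to 0.36, whose 3 K36M libraries were spread over 134.5, 74.9 and 113.7 TPM. Bub3, Mad2l1 and Bub1 had intervals of -0.19 to 0.34, -0.40 to 0.18 and -0.39 to 0.05. Those of Pttg1 (-0.43 to -0.02) and Incenp (0.01 to 0.34) lay on 1 side of 0, as did that of Bub1b, before any adjustment for the number of genes. A difference of 1 on this scale is a 2-fold change, and none of the 10 intervals reached it.

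Between embryos derived from K36M and from control oocytes no member was called either. None passed the adjusted threshold in limma, as none of the 17362 genes tested did (0%), and none had an unadjusted p under 0.05, against 7.71% of all genes. No member separated the genotypes without overlap, as 0.115% of all genes did. The members' median log2 fold change was 0.11, whereas the median over all genes was -0.26. That median over all genes moved to -0.04 with quantile normalization and to -0.17 with median-of-ratios scaling, so a member at 0 lay above the middle of all genes under each of these scalings.

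The embryos were far more variable than the FGO pools, and the intervals were accordingly wide. Sgo2a, which protects centromeric cohesin, had a lowest, median and highest level of 86.3, 109.6 and 187.0 TPM in control embryos and of 106.2, 128.5 and 274.7 TPM in K36M embryos. Of the 8 K36M embryos, 3 lay above the highest control, and the log2 fold change was 0.48 ± 0.30 (SE, n = 7 and 8; limma, adjusted p = 0.697, 95% interval -0.14 to 1.10). Incenp gave 0.47 ± 0.32 (limma, adjusted p = 0.724, interval -0.20 to 1.14), with K36M embryos from 144.5 over a median of 467.7 to 828.2 TPM. Bub1 was the member lowest relative to controls, at -0.55 ± 0.48 (limma, adjusted p = 0.767, interval -1.54 to 0.45), with 3 of 8 K36M embryos below the lowest control. Their levels were 10.4, 15.7 and 28.9 TPM, against 31.5 to 102.9 TPM in control embryos. Bub1b and Ttk gave -0.16 and 0.22, and their ranges in K36M embryos (48.8 to 143.2 and 46.8 to 92.0 TPM) overlapped widely with those in control embryos (59.2 to 261.8 and 15.7 to 125.6 TPM). The remaining members lay between -0.13 (Mad2l1) and 0.64 (Aurkc), and the interval of Aurkc ran from -1.30 to 2.58.

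**Figure D2:**
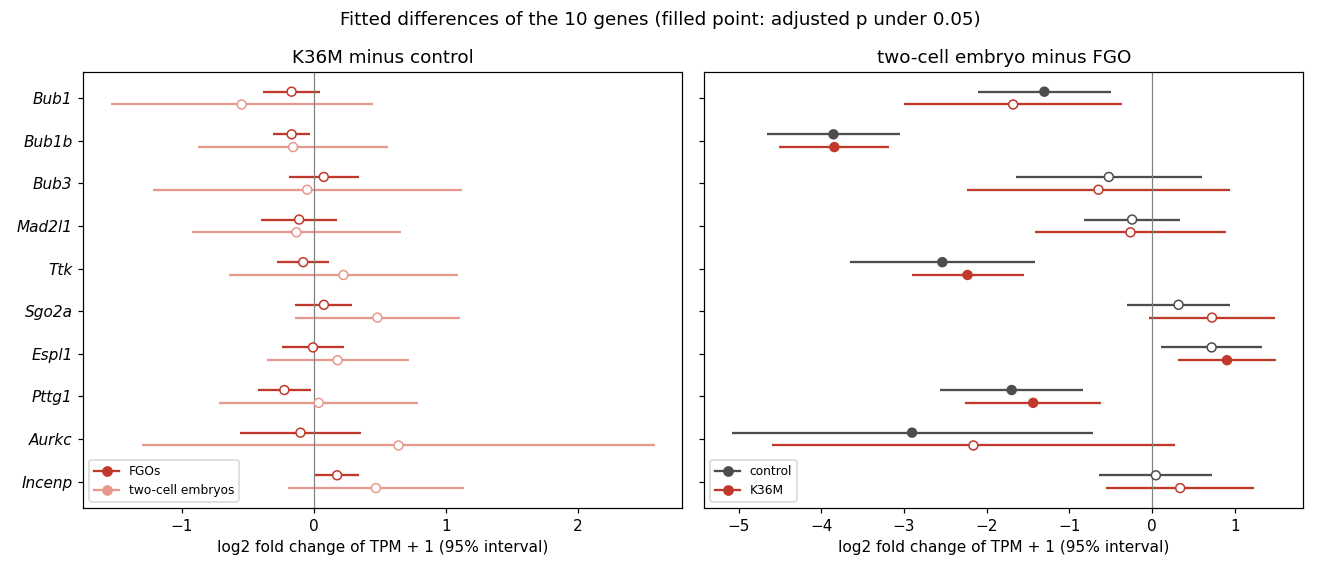
Fitted log2 fold changes of TPM + 1 for the 10 genes (points) with their 95% intervals (lines), K36M minus control on the left and two-cell embryo minus FGO on the right. A filled point has an adjusted p under 0.05 in limma: 0 points are filled on the left, whereas 5 control and 4 K36M points are filled on the right.

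The next comparisons followed the same messages from FGO to late two-cell embryo. In the controls 5 of 10 members fell (Bub1, Bub1b, Ttk, Pttg1 and Aurkc), against 15.5% of the 16914 genes tested, and 0 rose, against 15% of all genes. Altogether 30.5% of all genes passed the test in either direction. In the K36M lineage, which shares no library with the controls, 3 members fell (Bub1b, Ttk and Pttg1), against 15.4% of 16677 genes, and 1 rose (Espl1), against 9.86%, with 25.3% of all genes called in either direction. At an unadjusted p under 0.05 stood 6 of 10 members in the controls, against 41.1% of all genes, and 5 of 10 in the K36M lineage, against 36.6%. The members' median log2 fold change was -0.91 in the controls and -1.04 in the K36M lineage, whereas that over all genes was 0.08 and -0.16. FGO libraries pooled 5 oocytes and embryo libraries held 1 embryo with more PCR cycles, so stage, pooling, amplification and sequencing depth cannot be told apart in these comparisons. Both counts fell when 1 FGO library was left out. In the controls 5 members called became 3 without each of the 3 control FGO libraries. In the K36M lineage 4 became 2 without each of the 3 K36M FGO libraries. The count over all genes fell as well, from 5159 to at most 3056 and from 4217 to at most 2382.

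Bub1b changed most among the members. From FGO levels of at least 1372 TPM it reached a lowest level of 59.2, a median of 92.0 and a highest of 261.8 TPM in control embryos, a log2 fold change of -3.85 ± 0.37 (SE, n = 3 and 7; limma, adjusted p = 9.03e-06), or 14.5-fold lower on the TPM + 1 scale. In K36M embryos it stood at 48.8, 95.2 and 143.2 TPM, a change of -3.84 ± 0.31 (n = 3 and 8; limma, adjusted p = 1.09e-06) and 14.4-fold. In both genotypes every embryo was below every FGO library, and only 2.38% of all genes had a lower control log2 fold change than Bub1b.

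Ttk, the kinase that starts checkpoint signalling, was at 15.7, 61.2 and 125.6 TPM (lowest, median and highest) in control embryos and at 46.8, 57.3 and 92.0 TPM in K36M embryos. Its log2 fold change was -2.54 ± 0.52 in the controls (limma, adjusted p = 0.00260) and -2.23 ± 0.32 in the K36M lineage (limma, adjusted p = 0.000159). The transcript of securin followed the same course at a smaller size. Pttg1 was at 50.8, 130.3 and 243.2 TPM in control embryos and at 63.8, 112.0 and 294.4 TPM in K36M embryos. Its log2 fold changes were -1.70 ± 0.40 (limma, adjusted p = 0.00629) and -1.44 ± 0.38 (limma, adjusted p = 0.0132), the latter call being lost without K36M FGO replicate 1, 2 or 3 (0.0760, 0.0583 and 0.0527). For Ttk and Pttg1, as for Bub1b, the FGO and embryo ranges did not overlap in either genotype.

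Bub1 and Aurkc passed the test in the controls and missed it in the K36M lineage, while the difference between the genotypes was within its error for both (an interaction of -0.38 ± 0.75 for Bub1). Bub1 was at 31.5, 62.2 and 102.9 TPM in control embryos and at 10.4, 56.8 and 81.3 TPM in K36M embryos, all below the FGO libraries of the same genotype. Its log2 fold change was -1.30 ± 0.37 (limma, adjusted p = 0.0189) in the controls and -1.68 ± 0.61 (limma, adjusted p = 0.0598) in the K36M lineage. Leaving out any of the 3 control FGO libraries ended the call of Bub1 in the controls, with adjusted p of 0.0753, 0.0822 and 0.0739 without replicates 1, 2 and 3. In the K36M lineage, where Bub1 had missed the threshold, it passed without K36M embryo 3 (adjusted p = 0.0492) or K36M embryo 6 (0.0484).

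Aurkc was at 29.2, 20.5, 44.3, 5.10, 0, 18.8 and 50.8 TPM in the 7 control embryos, each below the FGO libraries, a log2 fold change of -2.90 ± 1.01 (limma, adjusted p = 0.0449). In the 8 K36M embryos it stood at 28.6, 13.6, 59.5, 15.1, 0, 16.7, 83.6 and 152.9 TPM, a range that overlapped with the FGOs, and the log2 fold change of -2.16 ± 1.14 had an adjusted p of 0.188 in limma. One embryo of each group thus listed Aurkc at 0, while another K36M embryo exceeded every FGO library. The control call was lost without any of the 3 control FGO libraries (adjusted p of 0.122, 0.128 and 0.144) or without control embryo 2, 5 or 7 (0.0599, 0.0741 and 0.0535), and the interaction of genotype and stage was 0.74 ± 1.60 (SE). With near-identical copies elsewhere in the genome, reads of Aurkc may also have been discarded or shared out in counting.

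The transcript of separase was higher in embryos. Espl1 was at 125.1, 173.3 and 246.7 TPM in control embryos and at 135.3, 215.6 and 260.9 TPM in K36M embryos, and all 15 embryos were above all 6 FGO libraries. Its log2 fold change was 0.91 ± 0.28 in the K36M lineage (limma, adjusted p = 0.0274) and 0.72 ± 0.28 in the controls (limma, adjusted p = 0.0695, interval 0.11 to 1.33). The K36M call was lost without any of the 3 K36M FGO libraries (limma, adjusted p of 0.0762, 0.124 and 0.0949). It was also lost with median-of-ratios scaling (0.0643) and without the mean-variance trend (0.102). In the controls Espl1 passed without control embryo 1 (limma, adjusted p = 0.0348) or 6 (0.0347). Array weights also called it (0.000457), as they did 9396 of the 16914 genes tested. Sgo2a was above every K36M FGO library in 8 of 8 K36M embryos and above every control FGO library in 5 of 7 control embryos. Its log2 fold changes of 0.73 ± 0.35 and 0.32 ± 0.29 did not pass (limma, adjusted p = 0.155 and 0.430).

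Bub3, Mad2l1 and Incenp, like Sgo2a, gave no call in either genotype. With array weights, which give each library its own weight, Bub3 fell in the controls (-0.76, adjusted p = 0.0278 in limma). Sgo2a rose with them in the K36M lineage (0.69, adjusted p = 0.0188 in limma). That setting called 9396 of 16914 genes in the controls and 8212 of 16677 in the K36M lineage. Mad2l1, whose product binds Cdc20, was at 104.3, 133.8 and 215.8 TPM in control embryos and at 30.7, 149.1 and 280.0 TPM in K36M embryos, with log2 fold changes of -0.24 ± 0.27 and -0.26 ± 0.54 from the FGOs (limma, adjusted p = 0.523 and 0.743). Incenp gave log2 fold changes of 0.05 ± 0.32 and 0.34 ± 0.42 (limma, adjusted p = 0.924 and 0.601), and the control value turned negative under both scalings of the table (-0.03 with quantile normalization and -0.18 with median-of-ratios). Bub3 was at 32.2, 55.1 and 245.2 TPM in control embryos and at 5.92, 76.1 and 143.4 TPM in K36M embryos. In 6 of 7 control embryos it was below every FGO library, but the remaining embryo was the highest of all libraries. The log2 fold changes of Bub3 were -0.52 ± 0.52 and -0.65 ± 0.74 (limma, adjusted p = 0.478 and 0.573). The 95% interval of Bub3 in the controls ran from -1.65 to 0.61, which leaves its direction unsettled.

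Without overlap between FGOs and embryos were 6 of 10 members in the controls, against 32.7% of all genes, and 6 of 10 in the K36M lineage, against 26.3%. Bub1, Bub1b, Ttk, Pttg1 and Espl1 were among them in both genotypes. Aurkc completed the set in the controls and Sgo2a in the K36M lineage. The interaction of genotype and stage, which tests whether the change from FGO to embryo differed between the genotypes, gave no call among the members or among all 17358 genes (0%; limma, smallest adjusted p over all genes = 0.110). At an unadjusted p under 0.05 it gave 0 members and 1.15% of all genes, and the estimates for the members ranged from -0.38 ± 0.75 (Bub1) to 0.74 ± 1.60 (Aurkc).

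Because the genes act as partners, their levels were set against each other within each library. These ratios were chosen after the levels were known and are given as a description, with no test. They compare transcripts, and the proteins of these genes were not measured here. Pttg1, for securin, exceeded Espl1, for separase, in all 6 FGO libraries. The Pttg1 to Espl1 ratio was 3.46 to 3.69 in control and 2.83 to 3.33 in K36M FGOs. In embryos the median ratio was 0.630 in controls (range 0.243 to 1.40) and 0.577 in the K36M group (0.370 to 1.21). Espl1 was the higher of the pair in 4 of 7 control and 7 of 8 K36M embryos. A similar contrast was seen for the transcripts of Bub1b and Bub3. Bub1b exceeded Bub3 by 15.6 to 20.98 times in control FGOs and by 13.9 to 16.3 times in K36M FGOs, and by a median of 1.55 times in control embryos (1.07 to 3.43) and 1.44 times in K36M embryos (0.821 to 8.25). Against Bub1, Bub1b had a median ratio of 11.1 in control and 10.98 in K36M FGOs and of 1.48 and 1.71 in the embryos. The latter ranges were wide (0.750 to 8.32 in control and 0.921 to 11.3 in K36M embryos), and K36M embryo 2 at 11.3 lay within the range of K36M FGOs, 9.66 to 11.5.

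**Figure D3:**
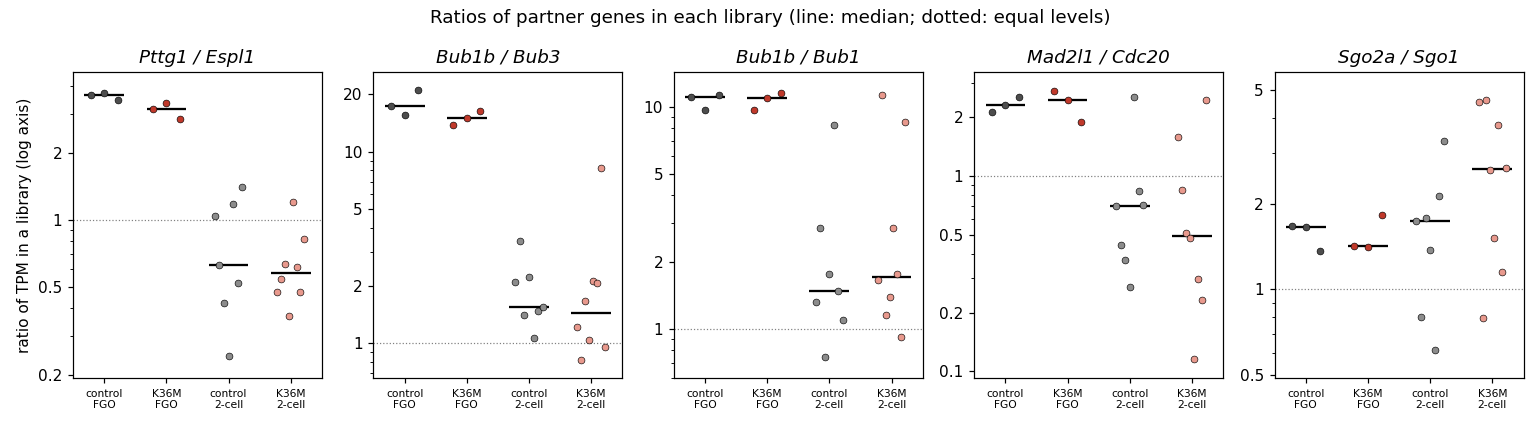
Ratio of the TPM of partner genes within each library on a log axis, 1 point per library and a line at the median of each of the 4 groups, with the dotted line at equal levels. The Pttg1 to Espl1 ratio lies at or above 2.83 in all 6 FGO libraries and at or below 1.40 in all 15 embryos, while the Sgo2a to Sgo1 ratio overlaps between all groups.

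Other partners outside the 10 genes were read in the same way. Mad2l1 exceeded Cdc20, the activator of the anaphase-promoting complex that Mad2 binds, by a median of 2.31 times in control and 2.43 times in K36M FGOs, whereas in embryos the median ratio was 0.704 and 0.494. The ranges overlapped, at 2.12 to 2.54 in control FGOs against 0.271 to 2.54 in control embryos and at 1.89 to 2.72 against 0.116 to 2.45 in the K36M lineage, and Mad2l1 was the higher in 1 of 7 control and 2 of 8 K36M embryos. Cdc20 itself rose by 1.59 ± 0.47 in the controls (limma, adjusted p = 0.0223) and by 1.84 ± 0.43 in the K36M lineage (limma, adjusted p = 0.00596). Aurkc exceeded Aurkb, the Aurora kinase of dividing somatic cells, in all 6 FGO libraries, by a median of 7.71 times in controls and 6.14 times in K36M FGOs. In embryos the median was 0.298 and 0.573, and Aurkc was the higher in 1 of 7 control and 3 of 8 K36M embryos. Aurkb rose by 1.99 ± 0.41 in the controls (limma, adjusted p = 0.00261) and gave 1.60 ± 0.74 in the K36M lineage (limma, adjusted p = 0.131). Sgo2a and Sgo1, both protectors of cohesin, had a median ratio of 1.66 in control FGOs (1.36 to 1.66) and 1.42 in K36M FGOs (1.41 to 1.83). In embryos the median was 1.74 in controls (0.612 to 3.31) and 2.65 in the K36M group (0.794 to 4.63), and these ranges overlapped with those of the FGOs.

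To place the members in their pathways, 114 further genes in 7 lists were examined, also chosen with earlier results of these data known. In the genotype comparisons no listed gene passed the test, with a smallest adjusted p of 0.288 in FGOs and 0.349 in embryos (limma). From control FGO to control embryo 42 of the 114 passed, 21 higher and 21 lower, and in the K36M lineage 40 passed, 19 higher and 21 lower, beside 30.5% and 25.3% of all genes. Without 1 FGO library of the genotype compared, the counts fell to as few as 25 in either lineage. Among the 15 checkpoint partners, 6 rose and 3 fell in the controls and 5 rose and 3 fell in the K36M lineage. Mad2l1bp, which removes Mad2 from Cdc20, rose by 4.87 ± 0.38 in the controls (limma, adjusted p = 1.54e-06), and the kinase gene Nek2 rose by 1.18 ± 0.22 (limma, adjusted p = 0.00128). The cyclin genes Ccnb1 and Ccnb2 fell by 1.82 and 2.94 on the log2 scale (limma, adjusted p = 0.000702 and 0.00348).

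Of the 6 genes of the passenger complex and the Aurora kinases, 2 rose in the controls (Aurkb and Cdca8, the latter by 1.10 ± 0.36 with an adjusted p of 0.0322 in limma) and 1 fell (Birc5, survivin, by 1.51 on the log2 scale with an adjusted p of 0.000833). In the K36M lineage 1 rose (Cdca8, 1.251 ± 0.31, adjusted p = 0.00913) and Birc5 fell again by 1.81, while Bora gave -0.44 ± 0.41 in the controls (limma, adjusted p = 0.440). Kinetochore genes were mixed, with 3 of 25 higher and 3 lower in the controls and 2 higher and 4 lower in the K36M lineage. Ska2 rose by 2.37 ± 0.33 and Mis12 by 1.19 ± 0.24 in the controls, while Nuf2, which binds microtubules in the Ndc80 complex, fell by 2.21 and Cenpf by 1.22 on the log2 scale (limma, adjusted p = 0.000174, 0.00269, 0.00216 and 0.00458).

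In the cohesin list 5 of 23 genes rose and 5 fell in the controls, and 5 rose and 3 fell in the K36M lineage. Wapl, which opens the cohesin ring, and the acetyltransferase gene Esco1 rose by 1.70 ± 0.18 and 1.54 ± 0.19 in the controls (limma, adjusted p = 2.13e-05 and 6.39e-05). Rad21l, a kleisin of meiotic cohesin, and Sgo2b fell by 3.47 and 3.34 on the log2 scale (limma, adjusted p = 0.00654 and 0.00666). In the list of the anaphase-promoting complex 1 of 19 rose (Cdc23, 1.42 ± 0.49, adjusted p = 0.0434) and 4 fell in the controls, among them Fbxo43 and Anapc16 by 1.55 and 1.48 (adjusted p = 0.00478 and 0.0102). In the K36M lineage the counts were 2 and 4 of 19, with Ube2c rising there by 1.06 ± 0.24 (limma, adjusted p = 0.00560) and giving 0.72 ± 0.44 in the controls (limma, adjusted p = 0.243).

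Within condensin, which compacts chromosomes, subunits went in opposite directions. In both genotypes 1 of 8 genes rose and 3 fell, and the list's median log2 fold change was -1.254 in the controls and -0.93 in the K36M lineage, beside 0.08 and -0.16 over all genes. Ncapd2 rose by 3.17 ± 0.41, whereas Ncapg and Smc4 fell by 2.65 and 2.16 on the log2 scale in the controls (limma, adjusted p = 9.83e-05, 5.20e-06 and 8.36e-05), and Ncapg2 gave 0.48 ± 0.23 (limma, adjusted p = 0.134). Of the 18 genes of spindle motors and poles, 3 rose and 2 fell in the controls and 3 rose and 3 fell in the K36M lineage. Tacc3, a spindle pole protein gene, fell by 2.45 and the motor gene Kif23 by 0.98 in the controls, while Dync1h1 rose by 1.35 ± 0.39 and Kif2a by 0.85 ± 0.23 (limma, adjusted p = 2.21e-05, 0.0111, 0.0203 and 0.0136).

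**Figure D4:**
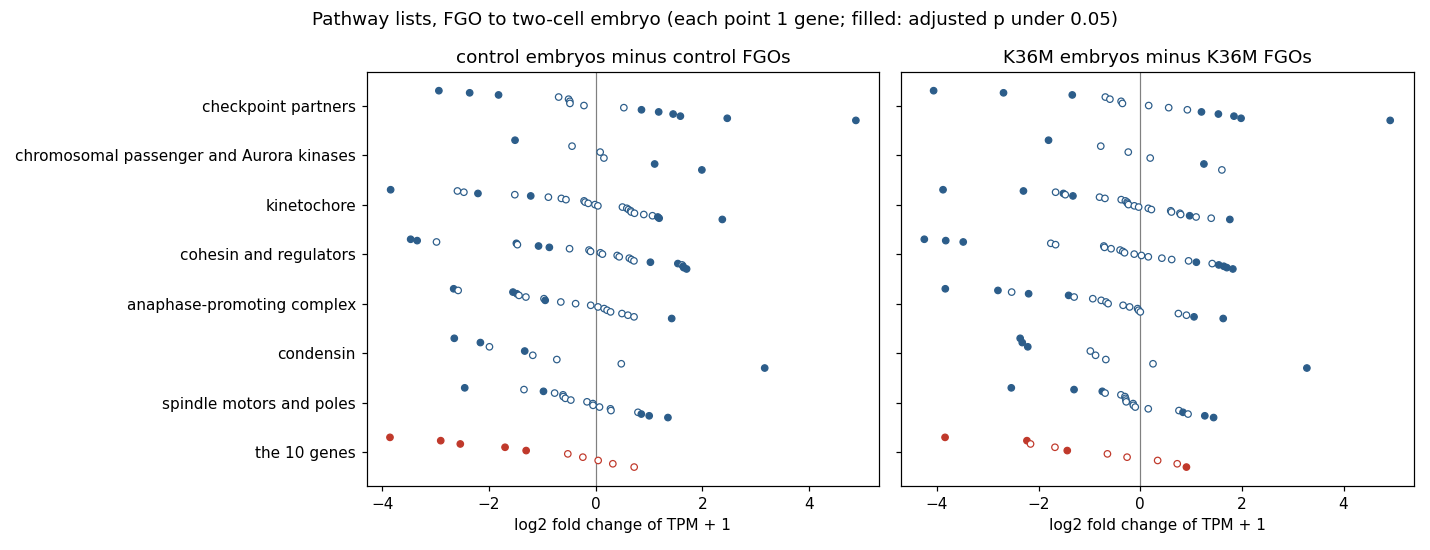
Log2 fold changes of TPM + 1 from FGO to two-cell embryo for the 114 listed genes (blue) and the 10 members (red), 1 point per gene, in the controls on the left and the K36M lineage on the right; filled points have an adjusted p under 0.05 in limma. Of the listed genes 21 rose and 21 fell in the controls, and the 5 members called there lie to the left of 0.

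Bub1b, Ttk and Pttg1 were grouped because they fell in both genotypes, so a correlation across that fall was given in advance. Correlations within a stage were not computed. Over the 21 libraries, which share the split between FGOs and embryos, log2(TPM + 1) of Bub1b had a Pearson r of 0.85 with Ttk and 0.74 with Pttg1, and Ttk one of 0.72 with Pttg1. Bub1 and Aurkc were called in the controls and not in the K36M lineage, with no shown difference between the lineages. Bub1 had an r of 0.64 with Ttk, 0.61 with Bub1b and 0.36 with Pttg1, and Aurkc one of 0.34 to 0.48 with these 4 genes. Espl1 had an r of -0.78 with Bub1b and -0.73 with Ttk. By the same measure, searched over 8926 genes that averaged 5 TPM or more in each stage and lay outside the members and lists, the gene most like Bub1b was Dnmt1, the maintenance DNA methyltransferase gene (r = 0.97). For the remaining genes the closest were Mcm8 for Bub1 (0.91), Smarcal1 for Ttk (0.92), Septin14 for Pttg1 (0.92), Ccdc115 for Aurkc (0.87), Rangap1 for Espl1 (0.92), Sfpq for Sgo2a (0.84), Snapc5 for Incenp (0.85), Arfgef3 for Mad2l1 (0.79) and H2af-ps2 for Bub3 (0.75). The split between FGOs and embryos enters each of these values, which show no likeness beyond it and were not tested.

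The members also differed in how much single embryos of the same group varied. The SD of log2(TPM + 1) among the 7 control embryos was lowest for Mad2l1 (0.35), Sgo2a (0.38) and Espl1 (0.41) and highest for Aurkc (2.01), with a median of 1.26 over all genes that averaged 1 TPM or more. Among the 8 K36M embryos it was lowest for Ttk (0.31) and Espl1 (0.35) and again highest for Aurkc (2.22), beside a median of 1.45. In the FGO pools the SD of the 10 genes ran from 0.03 (Espl1) to 0.20 (Aurkc) in controls and from 0.03 (Bub1b) to 0.43 (Aurkc) in K36M libraries, beside medians of 0.19 and 0.25. In both groups of embryos each member apart from Aurkc was thus less variable than the median gene. The members' mean levels lay above those of 73.5 to 98.1% of all genes in control embryos, and the part of the level in this spread was not tested.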

How the data were processed

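RNA-seq libraries were prepared with a stranded SMART-Seq kit from pooled FGOs and from individual late two-cell embryos. The authors trimmed reads with Trim Galore, aligned them to mm10 with HISAT2, removed ribosomal reads with bedtools, counted with featureCounts and deposited TPM values, 1 table of 26214 genes in 22 libraries. The gene annotation, the gene lengths and the strand setting are not given in the sources used here. Each column has the same sum and keeps no depth, so neither intervals for counting error nor count tests were used.

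Libraries were grouped by their labels, and 21 were compared, without control embryo 4. For each comparison, genes averaging 1 TPM or more over its libraries were tested with limma 3.58.1 (R 4.3.3; lmFit, eBayes with trend) on log2(TPM + 1), with Benjamini-Hochberg adjustment over all genes tested and a threshold of 0.05. The pseudocount of 1 understates the change of low genes. All 10 members passed the filter in every comparison. FGO genotypes, embryo genotypes, each genotype's stages and the interaction of both were fitted separately; the control libraries enter several of these fits, as do the K36M libraries. The code was tested on simulated data with 100 genes changed at each size. A log2 change of 1 was called in 48% of them between FGO genotypes and in 6% between embryo genotypes. From FGO to embryo it was called in 0% (controls) and 3.03% (K36M), and in the interaction in 1%. For a change of 2 these were 83, 26, 15, 11.2 and 8.08%. A missing call therefore does not show that a gene was unchanged. Alternatives were a pseudocount of 0.1, no filter, a minimum mean TPM of 5, quantile normalization, median-of-ratios scaling, no trend, array weights, a replicate block, control embryo 4 added and leaving out each library. Medians of ratios without 1 library were added after seeing the data.

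The members and gene lists were chosen with earlier results of these data known. Named were all 10 members, the 2 genes per list and direction with the smallest p from control FGO to control embryo, listed genes called between genotypes, for each member the gene with the largest Pearson correlation, H3f3b, and the partners Aurkb, Sgo1 and Cdc20. Promoters and positions were taken from RefSeq GRCm38.p6. Copies were sought among annotated transcripts at an identity of at least 95% over at least 50 bases. Other data types of the series were not analysed here.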

Additional observations from a re-analysis of the deposited data

Results flagged for a closer look

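In 3 of 20 groups of embryo values examined, 1 embryo lay far from the rest on the log2(TPM + 1) scale, where chance gives about 1 such group. Bub3 was at 245.2 TPM in control embryo 6, whereas the other 6 control embryos stood between 32.2 and 68.4 TPM. Bub3 was at 5.92 TPM in K36M embryo 7, the lowest of the 8 K36M embryos, whose highest level was 143.4 TPM. Aurkc was listed at 0 in K36M embryo 5, whose fellow embryos stood between 13.6 and 152.9 TPM.

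Ttk stood at 234.4 TPM in control embryo 4, which entered no comparison, against 15.7 to 125.6 TPM in the 7 control embryos compared. In the same embryo Bub3 (30.0 TPM), Sgo2a (34.9 TPM), Espl1 (39.0 TPM) and Incenp (139.5 TPM) were below those 7 embryos, and the remaining 5 members lay within their range.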

How the results depend on the processing

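Bub1b was called lower in embryos in both genotypes under every alternative run, Ttk in the K36M lineage and Pttg1 in the controls likewise. No member was called between the genotypes or in the interaction under any alternative run. Of 430 refitted member values other than those without 1 library, 400 kept direction and call, 8 lost the call, 8 gained it and 14 reversed. TPM keeps no depth, so limits from counting error were not computed, and the causes of these shifts were not tested. Replicate numbers did not pair the libraries, since same-numbered deviations correlated at 0.025, 0.015 and 0.101 in FGOs and from -0.101 to 0.0968 in embryos. With medians in place of means, 6 of 10 members kept their place in the order of control FGOs and 5 of 10 in that of control embryos.

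Between FGO genotypes the count of genes went from 1 to 0 with a pseudocount of 0.1, without the filter on low values, without the mean-variance trend and with a replicate block. Between embryo genotypes it went from 0 to 5 without the trend and to 1 with array weights, which give each library its own weight. In the interaction it went from 0 to 13 without the filter, to 1 without the trend and to 3 with array weights. From FGO to embryo, array weights raised the genes called from 5159 to 9396 of 16914 in the controls. In the K36M lineage the count went from 4217 to 8212 of 16677. The listed genes called went from 42 to 71 and from 40 to 63. Members called went from 5 to 7 in the controls, adding Bub3 and Espl1 (limma, adjusted p of 0.0278 and 0.000457). In the K36M lineage they went from 4 to 7, adding Bub1, Sgo2a and Aurkc (0.00211, 0.0188 and 0.0123). The replicate block left 3 of the 5 members called in the controls (Ttk and Bub1 missed it with adjusted p of 0.0542 and 0.0822 in limma), and in the K36M lineage 2385 genes and 20 listed genes, with Espl1 at an adjusted p of 0.229. Espl1 also lost its call there with median-of-ratios scaling (adjusted p = 0.0643) and without the trend (0.102), and Aurkc in the controls with a pseudocount of 0.1 (0.124), without the filter (0.0787) and without the trend (0.0664). Bub1 gained a call in the K36M lineage with a minimum mean TPM of 5 (0.0473), quantile normalization (0.0345) and median-of-ratios scaling (0.0326).

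These log2 fold changes reversed. In embryos between genotypes, Bub3 became 0.054 with median-of-ratios scaling and 0.074 with control embryo 4 added, and Ttk became -0.051 with that embryo. From FGO to embryo in the controls, Incenp became -0.027 with quantile normalization, -0.18 with median-of-ratios scaling and -0.11 with control embryo 4. In the K36M lineage the replicate block gave 0.13 for Mad2l1 and -0.089 for Incenp. In the interaction, Bub1b became -0.00381 with quantile normalization and -0.063 with control embryo 4, Bub3 became 0.025 with median-of-ratios scaling, and Mad2l1 became 0.00204 with quantile normalization, 0.13 with median-of-ratios scaling and 0.076 with array weights.

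Without 1 library at a time, the count of genes ranged from 0 to 300 between FGO genotypes (300 without K36M FGO replicate 1, 0 without control replicate 2 or 3 or K36M replicate 3, and 2 without control replicate 1) and from 0 to 1 between embryo genotypes (1 without K36M embryo 8). From FGO to embryo it ranged from 3015 to 5966 in the controls and from 2342 to 4439 in the K36M lineage, with 3 to 6 and 2 to 5 members and 25 to 49 and 25 to 44 listed genes, the low ends each without an FGO library. In the interaction it ranged from 0 to 3. Fold changes that crossed 0 between FGO genotypes were those of Bub3 (-0.014 to 0.14), Espl1 (-0.074 to 0.071) and Aurkc (-0.28 to 0.14). Between embryo genotypes they were those of Bub1b (-0.30 to 0.055), Bub3 (-0.23 to 0.39), Mad2l1 (-0.29 to 0.16), Ttk (-0.047 to 0.44), Pttg1 (-0.16 to 0.21) and Aurkc (-0.013 to 1.29). From FGO to embryo they were those of Incenp in the controls (-0.093 to 0.18) and Mad2l1 in the K36M lineage (-0.42 to 0.031), and in the interaction those of Bub1b (-0.13 to 0.22), Bub3 (-0.31 to 0.32) and Mad2l1 (-0.18 to 0.27).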
